A study of Mus musculus with 2 samples.

Results

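REV-ERBα binding around Dusp4 and Zfp36l2 was described from the peaks of 1 chromatin immunoprecipitation sequencing (ChIP-seq) library. The cells were mouse T helper 17 (Th17) cells, CD4 T cells that secrete interleukin-17. The members are the peaks whose midpoint lay in the region given for Dusp4 and its flanks, chromosome 8 from 35000000 to 36000000, or in that given for Zfp36l2 and its flanks, chromosome 17 from 84000000 to 85000000, in mm9 coordinates. They numbered 50 of the 8884 peaks in the list, 25 in each region. The cells were wild-type primary Th17 cells in culture. The ChIP group was 1 library made with an antibody to REV-ERBα, and the control group was 1 library of input DNA from cells with the same label. No further treatment and no time or age is given in the labels. With 1 ChIP library there is no replicate check. The members were chosen by the position of their midpoints, and the regions were selected on earlier results of the same list, their number of peaks included. All values below are therefore descriptions without a test. The peak list holds no expression values, so the Th17 label could not be set against marker genes.

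REV-ERBα, encoded by Nr1d1, belongs to the nuclear receptors and to the circadian clock. It represses transcription by recruiting corepressors, and its DNA elements are also bound by ROR receptors, among them RORγt of Th17 cells. Dusp4 encodes a dual-specificity phosphatase of the nucleus, also called MKP-2, which removes phosphate from MAP kinases and so limits signalling below the T cell receptor. Zfp36l2 encodes a zinc finger protein of the tristetraprolin family, which binds AU-rich elements in messenger RNAs, including those of cytokines, and promotes their decay. Both proteins therefore act as brakes on activation, Dusp4 at the level of kinases and Zfp36l2 at that of messenger RNA.

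No mm9 annotation or sequence was used here. The regions are named from the rule that chose them, and the distance of each peak to the start of Dusp4 or Zfp36l2 was not analysed. In the order of RefSeq genes in the GRCm38.p6 assembly, Dusp4 lies between Saraf, a regulator of store-operated calcium entry, and Tnks, which encodes tankyrase. Zfp36l2 lies between Haao, an enzyme of tryptophan breakdown, and Thada. A peak in either region may therefore be nearer to another gene than to the one that gives the region its name, and "Dusp4 region" and "Zfp36l2 region" below stand for the intervals only. The other MAP kinase phosphatases and decay factors were not placed on the peak list for the same reason.

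Both regions belonged to the most densely bound stretches of the list. A count of 25 peaks has a 95% Poisson interval of 16.2 to 36.9, and at least 25 peaks were found in 9 of 2561 windows of 1 Mb (0.351%), these regions included. The high density ended near both borders of the Zfp36l2 region and near the border of the Dusp4 region at lower coordinates. The 3 windows of 1 Mb before the Dusp4 region held 1, 0 and 2 peaks, while the window directly after it held 15 and the following windows 2 and 0. Around the Zfp36l2 region the 3 windows before held 1, 0 and 3 peaks and the 3 after held 2, 2 and 9. The Zfp36l2 region thus stood between sparse neighbours on both sides, and peaks of the Dusp4 region had further peaks on the side of higher coordinates.

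**Figure D1:**
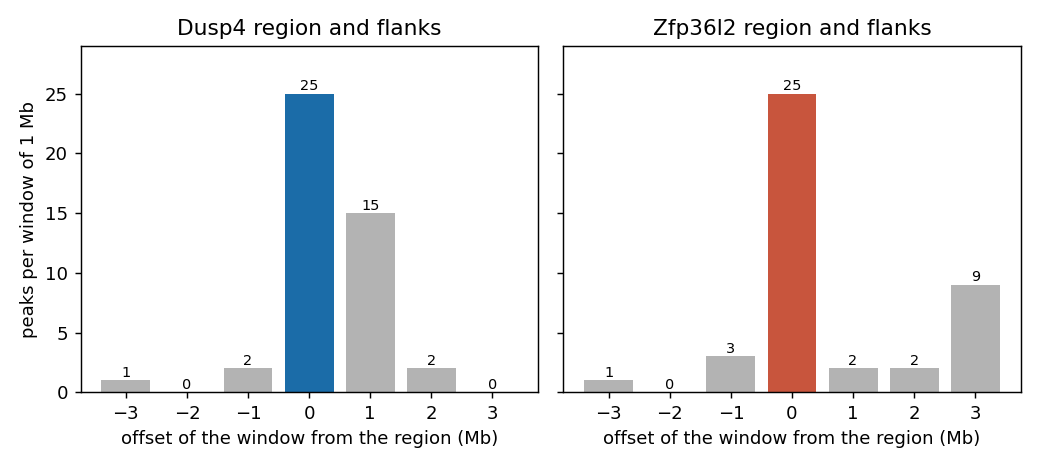
Number of REV-ERBα peaks (vertical axis) in windows of 1 Mb at offsets of -3 to 3 Mb from each region (horizontal axis); the coloured bar is the region itself and grey bars are its flanks. Each region has 25 peaks, and the only flank above 9 is the window after the Dusp4 region, with 15.

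The borders did not cut through a row of peaks. The nearest peak before the Dusp4 region, at 34716870 to 34717176 with 15 tags, lay 283 kb outside it, and the nearest after, at 36028724 to 36029030 with 13 tags, lay 28.9 kb outside. The first Dusp4 peak was 110 kb inside the border and the last 155 kb inside. For the Zfp36l2 region the nearest outer peaks, at 83913657 to 83913963 with 14 tags and at 85189970 to 85190276 with 23 tags, lay 86.2 and 190 kb outside. The first and last inner peaks were 54.4 and 165 kb from the borders. Occupied stretches were accordingly shorter than the regions, with 735 kb from first to last peak in the Dusp4 region and 780 kb in the Zfp36l2 region.

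A peak's total tags are the ChIP sequence tags counted in it, and every peak spans the same 306 bp, so tags can be compared between peaks without a length correction. They sum over all cells, so that a site bound in more cells and a site bound more often in each cell cannot be told apart. The Dusp4 peaks held 444 tags, with a lowest value of 9, quartiles of 12 and 25, a median of 14 and a highest value of 40. The Zfp36l2 peaks held 505 tags, with a lowest value of 9, quartiles of 13 and 29, a median of 16 and a highest value of 44. Over all 8884 peaks the median was 15, with quartiles of 12 and 20. The medians of both regions were within 1 tag of the list, and the upper quartiles were 5 and 9 tags above it. The regions hold 0.563% of the peaks and 0.63% of the tags in peaks, when the strongest peak of the list, a region of very high input on chromosome 2, is left out of the total.

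Tags at or above the list median of 15 were counted in 11 Dusp4 peaks (44%) and 16 Zfp36l2 peaks (64%), against 51.3% of the list. At least 25 tags were found in 7 of 25 Dusp4 peaks and in 7 of 25 Zfp36l2 peaks, 28% each (exact 95% interval 12.1 to 49.4), against 13.4% of all listed peaks. At least 30 tags were found in 3 Dusp4 peaks (12%, interval 2.55 to 31.2) and in 6 Zfp36l2 peaks (24%, interval 9.36 to 45.1), against 6.73% of the list. The intervals include the background for 25 tags and, in the Dusp4 region, for 30 tags. Of the single regions, the Zfp36l2 share at 30 tags had an interval above it. Over both regions together, 14 of 50 peaks had at least 25 tags (28%, interval 16.2 to 42.5), beside 13.4% of the list. At least 30 tags were found in 9 of these 50 (18%, interval 8.58 to 31.4), beside 6.73%. These limits of 25 and 30 tags were set after the values were known, in regions selected on the same list. The intervals also take neighbouring peaks of the same library as independent. For these reasons the intervals, single or pooled, cannot decide whether strong peaks were in excess. The lower end looked like the rest of the list: a caller's score of 9 or 10, just at or above the threshold of 9, was listed for 7 Dusp4 and 6 Zfp36l2 peaks (28% and 24%), against a background of 26%.

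The strong peaks of both regions lay on the side of higher coordinates. In the first 500 kb of the Dusp4 region 12 peaks had 9 to 18 tags and none reached 25, and in the last 500 kb 13 peaks had 10 to 40 tags and 7 reached 25. In the first 500 kb of the Zfp36l2 region 8 peaks had 9 to 17 tags and none reached 25, and in the last 500 kb 17 peaks had 10 to 44 tags and 7 reached 25. The 14 peaks of at least 25 tags all fell into these last 500 kb, a division that was chosen after the values were seen. The 7 strong Dusp4 peaks spanned 234 kb and held 47.7% of the region's tags, with 5 weaker peaks among them. The 7 strong Zfp36l2 peaks spanned 316 kb and held 49.5% of the region's tags, with 8 weaker peaks among them.

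**Figure D2:**
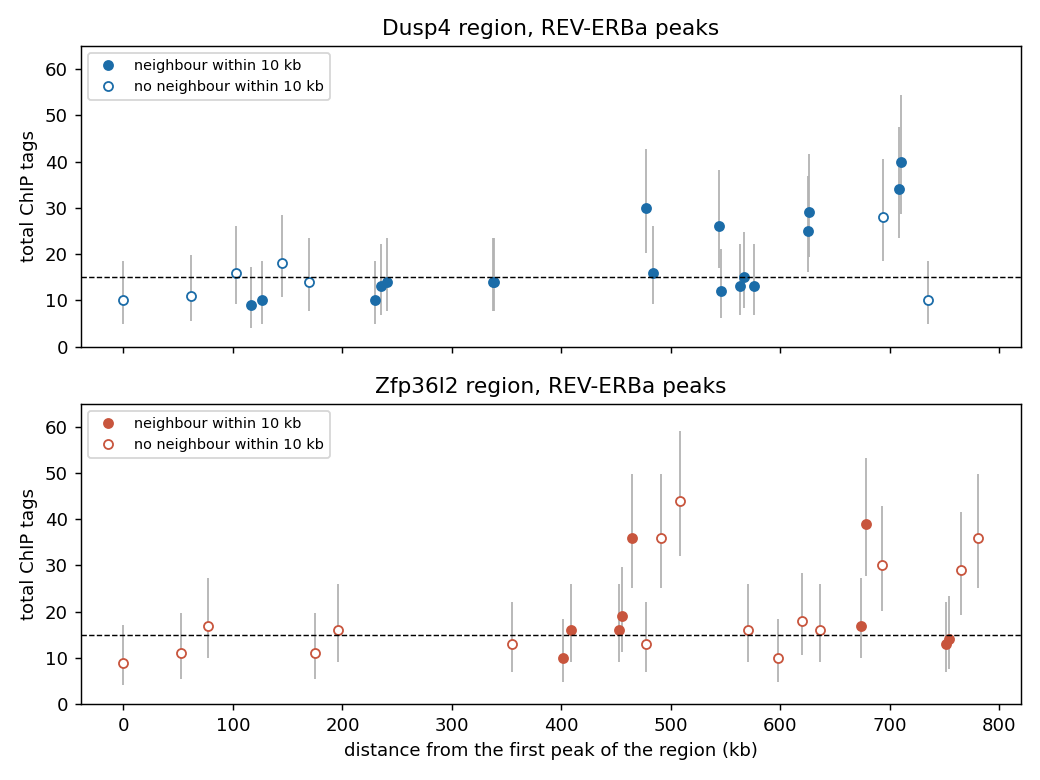
Total ChIP tags of each of the 25 peaks per region (vertical axis) against the distance of its midpoint from the first peak of the region in kb (horizontal axis), with exact 95% Poisson intervals as bars; filled points have a neighbour within 10 kb and the dashed line marks the list median of 15. Peaks of at least 25 tags appear in each region only to the right, and filled points are more frequent in the Dusp4 region.

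The strongest Dusp4 peak, at 35820144 to 35820450, had 40 tags (95% Poisson interval 28.6 to 54.5), the third highest count among the 374 peaks of chromosome 8. Its neighbour at 35818551 to 35818857, 1593 bp away, had 34 tags (23.5 to 47.5), so that the pair together held 74 tags. The peak at 35586858 to 35587164 had 30 tags (20.2 to 42.8). Next came the peak at 35735510 to 35735816 with 29 tags (19.4 to 41.6) and that at 35803427 to 35803733 with 28 (18.6 to 40.5). The intervals of these 5 peaks overlap, so their order is not resolved. The peaks at 35654103 and 35734806, with 26 and 25 tags, complete the strong ones. The first peak of the region, at 35109850, and the last, at 35845019, had 10 tags each. The last peak thus lay 24.9 kb from the strongest and held few tags.

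The strongest Zfp36l2 peak, at 84562339 to 84562645, had 44 tags (95% Poisson interval 32 to 59.1), the highest count among the 368 peaks of chromosome 17. The peak at 84732295 to 84732601 followed with 39 tags (27.7 to 53.3). The peaks at 84519016, 84545398 and 84834387 had 36 tags each (25.2 to 49.8). The region holds 6.79% of the peaks of chromosome 17 and 5 of the 13 with at least 36 tags, the highest 10 with ties. The Dusp4 region holds 6.68% of the peaks of chromosome 8 and 1 of the 10 with at least 35 tags. The Zfp36l2 region also contained peaks of 30 and 29 tags, at 84746775 and 84819542, and every other peak in it had at most 19. Its first peak, at 84054224, had 9 tags, whereas its last, at 84834387, was one of those with 36, and no further peak was listed for 356 kb.

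Input was low under all 50 peaks, and the caller's filter of 4-fold over input limits it for every listed peak. The authors scaled input tags to the ChIP depth, and the listed values lay on whole steps of 0.945 scaled tags, so that the number of input tags behind each fold could be read. In the Dusp4 region 1 peak had no input tag, 10 had 1, 6 had 2, 7 had 3 and 1 had 6. In the Zfp36l2 region 4 peaks had none, 8 had 1, 7 had 2, 3 had 3, 2 had 4 and 1 had 6. The median was 1.9 scaled tags in each region and in the whole list. The highest input of each region, 5.7 scaled tags, belonged to strong peaks, that of 29 tags at 35735510 in the Dusp4 region and that of 44 tags at 84562339 in the Zfp36l2 region. At 0.923% of the list, peaks with 6 input tags were rare. The strongest Zfp36l2 peak had a fold of 7.76 (exact binomial 95% interval 3.29 to 22.3).

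The fold of ChIP over scaled input, as the authors list it, was at least 4 for every peak by their filter. Its median was 10.6 in the Dusp4 region (4.94 to 29.62) and 11.6 in the Zfp36l2 region (4.5 to 63.47), against 10.6 in the list. At least 8-fold enrichment was listed for 17 Dusp4 peaks (68%) and 16 Zfp36l2 peaks (64%), beside 61.5% of the list, and both shares are near that background. At least 16-fold was listed for 3 Dusp4 peaks (12%, interval 2.55 to 31.2) and 9 Zfp36l2 peaks (36%, interval 18 to 57.5), where the list has 28.1%. At least 32-fold was listed for 5 Zfp36l2 peaks (20%, interval 6.83 to 40.7) and 0 of 25 Dusp4 peaks, which allows a share of up to 12% by the limit of 3 counts (exact interval 0 to 13.7), and the list has 6.03%. The 5 folds of at least 32 rest on 0 or 1 input tags each, and the intervals of the regions overlap.

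Among the Zfp36l2 peaks with the highest folds, that of 39 tags at 84732295 was listed at 41.26-fold over 1 input tag, with an interval of 6.98 to 1670.9. The peaks of 36 tags at 84519016 and 84834387 were listed at 38.08-fold, also over 1 input tag (6.41 to 1545.5). The highest listed value, 63.47, belonged to the peak of 30 tags at 84746775, which had no input tag. Set against 3 input tags, the most that a count of 0 allows, it was at least 10.6-fold enriched. The exact lower 95% limit, which also covers the counting error of the ChIP tags, was 8.09. The peak of 16 tags at 84463269, listed at 33.85, was at least 5.64-fold enriched against 3 input tags, with an exact lower limit of 4.08. For those of 13 tags at 84409494 and 9 tags at 84054224 the values against 3 input tags were 4.58 and 3.17, and the exact lower limits 3.22 and 2.09.

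In the Dusp4 region the highest listed fold, 29.62, was that of a peak of 14 tags at 35350940 with no input tag, which was at least 4.94-fold enriched against 3 input tags, with an exact lower limit of 3.51. The next, 26.45 (4.33 to 1085.9), belonged to the peak of 25 tags at 35734806 with 1 input tag. The 3 strongest peaks had 3 input tags each, and folds of 14.11 (4.49 to 71.3) at 35820144, 11.99 (3.77 to 61.0) at 35818551 and 10.58 (3.29 to 54.2) at 35586858. The lowest fold was 4.94 (1.38 to 26.8), at 35448562 with 14 tags. The lowest folds of the Zfp36l2 region were 4.5 (1.47 to 18.4), at 84131521 and 84728013, each with 17 tags over 4 input tags. All these intervals overlap widely, and single folds within a region cannot be ranked.

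**Figure D3:**
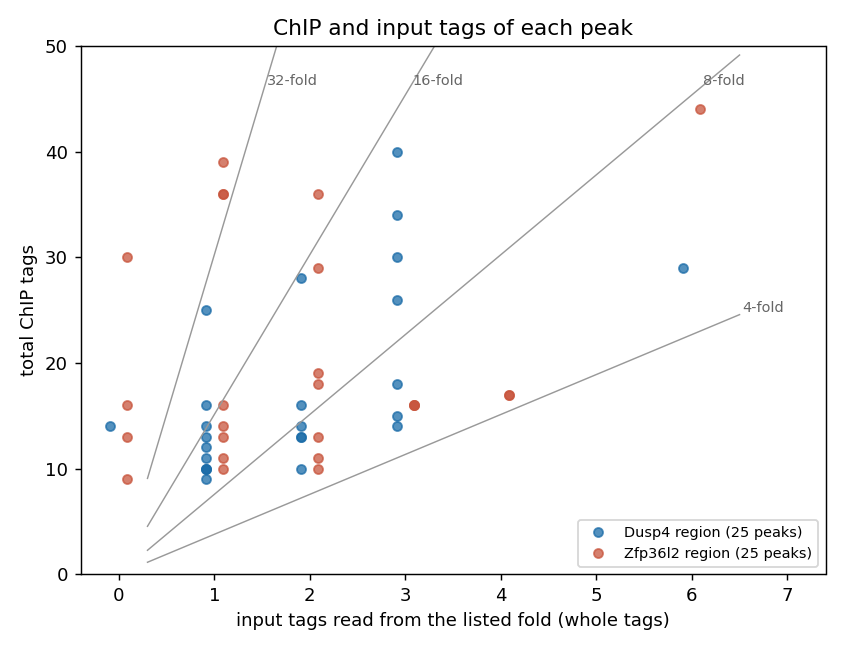
Total ChIP tags of the 50 peaks (vertical axis) against the whole input tags read from the listed fold (horizontal axis), with points of the regions set slightly apart sideways and grey lines at 4-, 8-, 16- and 32-fold. The strongest peak of each region has 3 (Dusp4) or 6 (Zfp36l2) input tags, and the 4 Zfp36l2 and 1 Dusp4 peaks at 0 have no measured ratio.

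Peaks of the Dusp4 region came mostly in pairs and small groups. Of its 25 peaks, 18 had another peak within 10 kb (72%, exact 95% interval 50.6 to 87.9), where 33.7% of the list had one. In the Zfp36l2 region 9 of 25 did (36%, interval 18 to 57.5), a share near the background. The median distance between neighbouring midpoints was 16.2 kb in the Dusp4 region, 19.2 kb in the Zfp36l2 region and 50.8 kb in the list. Because the regions were selected with their number of peaks known, distances shorter than those of the list come with that choice. Shares of peaks with a neighbour are set beside those of other peak-rich windows below. A neighbour within 3 kb was found for 8 Dusp4 peaks (32%, interval 14.9 to 53.5) and 2 Zfp36l2 peaks (8%, interval 0.984 to 26), against 13.3% of the list. At both distances the Dusp4 share was the higher, and the intervals of the regions overlap.

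The Dusp4 region had 8 groups in which neighbouring midpoints were no more than 10 kb apart, 6 pairs and 2 groups of 3. Groups of at least 3 held 6 Dusp4 peaks (24%, interval 9.36 to 45.1) and 3 Zfp36l2 peaks (12%, interval 2.55 to 31.2), against 9.71% of the list. The closest pair lay 704 bp apart at 35734806 and 35735510, near the 612 bp that the caller allows at least, and held 25 and 29 tags. The pair at 35447442 and 35448562, 1120 bp apart, held 14 tags in each peak. The pair at 35654103 and 35655647, 1544 bp apart, was unequal, with 26 and 12 tags. The groups of 3 held weak peaks only. That from 35339457 to 35351246 had 10, 13 and 14 tags, and that from 35672828 to 35686058 had 13, 15 and 13. In this region close spacing therefore occurred among both strong and weak peaks, and the median was 14 tags with and without a neighbour within 10 kb.

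The Zfp36l2 region had 4 such groups. The group of 3 from 84506834 to 84519322 held 16, 19 and 36 tags, and its first 2 peaks, 2622 bp apart, were the closest pair of the region. The pair at 84728013 and 84732295, 4282 bp apart, held 17 and 39 tags. The pairs at 84455585 and 84805013 held 26 and 27 tags in all. Of the 7 strong peaks of this region 5 had no neighbour within 10 kb, the strongest of them, at 84562339, being 16.9 kb from the next. By the 10 kb limit, strong sites were thus mostly single peaks here. In the Dusp4 region 6 of the 7 strong peaks had a neighbour within that limit. The 5 Zfp36l2 peaks were not isolated, since their nearest neighbours lay 11.4 to 16.9 kb away, under the region's median distance of 19.2 kb.

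Each region had its own empty stretches and dense stretches. The longest distance between neighbours was 138 kb in the Dusp4 region, between the pair at 35447442 and the strong peak at 35586858. It was 159 kb in the Zfp36l2 region, between the peaks at 84250253 and 84409494. In each region this gap came before the strong peaks. The densest 100 kb held 7 peaks in both regions, with 133 tags from 35654103 to 35735816 and 180 tags from 84463269 to 84562645. The latter stretch ends with the strongest Zfp36l2 peak.

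Enrichment over the local region compares a peak with the ChIP tags in the surrounding 10000 bp, so that a close neighbour counts as background. Its median was 7.2 in the Dusp4 region and 6.98 in the Zfp36l2 region, against 7.78 in the list. At least 8-fold over the local region was listed for 9 Dusp4 peaks (36%) and 8 Zfp36l2 peaks (32%), against 47.5% of the list. The Dusp4 pair at 35818551 and 35820144, with 34 and 40 tags, had local folds of 4.79 and 5.53. The closest pair, at 35734806 and 35735510 with 25 and 29 tags, had 7.07 and 8.2. The peak of 26 tags at 35654103, with a neighbour 1544 bp away, had 12.67. The peak of 36 tags at 84834387, which is 14.8 kb from its neighbour, had 16.29, the highest local fold of the 50 peaks. The strongest Zfp36l2 peak had 14.52. Another peak without a neighbour within 10 kb, that of 36 tags at 84545398, had 6.0. In the list, the median local fold was 6.53 for peaks with a neighbour within 10 kb and 8.53 for those without. The order was the opposite in both regions, with 7.31 and 6.89 in the Dusp4 region and 7.57 and 6.74 in the Zfp36l2 region. These medians rest on 18 and 7 Dusp4 peaks and on 9 and 16 Zfp36l2 peaks. A neighbour within 10 kb can also lie outside the surrounding 10000 bp. The split therefore does not isolate peaks whose local region holds another peak, and a split at a shorter distance was not made.

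Other peak-rich stretches give a closer comparison than the whole list. Windows of 1 Mb with at least 20 peaks numbered 28. Their share of peaks with a neighbour within 10 kb ran from 10% to 72% with a median of 59.2%. The Dusp4 region had the highest of these shares and the Zfp36l2 region the 25th highest. The next value below the Dusp4 region was 71.4%, so its rank is no sign of a distinct class. Peaks of at least 25 tags numbered 1 to 9 per window with a median of 4.5, and both regions, with 7, shared rank 2 with other windows, 7 windows in all. By peaks of at least 30 tags the Zfp36l2 region was second, with 6 where the highest window had 7. The Dusp4 region, with 3, shared rank 8 by that limit, 5 windows in all. By median tags the Dusp4 region was among the lowest, at rank 24 of 28 with 3 other windows, and the Zfp36l2 region shared rank 13. Among these dense windows both regions thus had many peaks of at least 25 tags, and at 30 tags only the Zfp36l2 region ranked near the top. These ranks are by number, in windows that held from 20 to 30 peaks, and not by share. The Dusp4 region combined a low median, 14 tags, with frequent neighbours within 10 kb. So did the window of chromosome 9 from 123000001, with a median of 14 tags and a share of 65%. The Zfp36l2 region had few such neighbours.

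**Figure D4:**
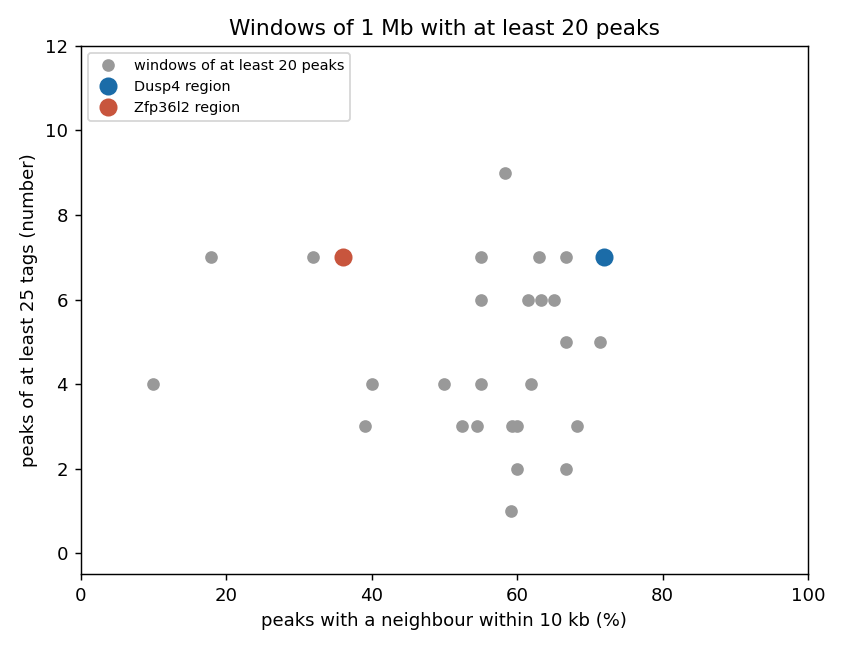
Number of peaks of at least 25 tags (vertical axis) against the percentage of peaks with a neighbour within 10 kb (horizontal axis) in the 28 windows of 1 Mb with at least 20 peaks. The Dusp4 region (72%) and the Zfp36l2 region (36%) both have 7 strong peaks and lie far apart on the horizontal axis.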

How the data were processed

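Per the submitters' processing notes, CASAVA 1.8.2, Bowtie, HOMER and mm9 were used. Per the file headers, the authors called peaks with HOMER findPeaks on 6390234 ChIP tags against input, at a false discovery rate of 0.001 (9 tags), 4-fold and a Poisson p-value of 1e-04 over input and over the local 10000 bp. The deposited total tags are raw counts. The authors scaled ChIP tags to 10000000 and input tags to the ChIP depth, both deposited as a signal. The deposited folds are ratios, the deposited p-values were not used, and the deposited score is the caller's peak height.

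Peaks were selected by midpoint and grouped in Python 3.11.15 (numpy 2.4.6; pandas 2.3.3; scipy 1.17.1; figures by matplotlib 3.10.9). Tags divided by fold gave input in steps of 0.945 scaled tags. Above the lowest listed value of 0.5, the 7392 values fell within a relative 0.02 of a whole step, and the others were read as no input tag. Poisson, Clopper-Pearson and fold intervals are exact, at 95%, cover counting error only and take tags and peaks as independent. Windows of 1 Mb ran from the first to the last peak of each chromosome. Grouping and intervals were tested on simulated data. Peaks named are the 5 highest by tags, the highest and lowest folds, those with no input tag, the first, the last, the closest pair and groups of at least 3; others were named after their values were seen. The regions and this rule were chosen with earlier results of these data known. Alternatives were stricter filters, other distances, shifted windows and other measures of strength.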

Additional observations from a re-analysis of the deposited data

How the results depend on the processing

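Keeping only peaks with tags at or above the list median left 11 of 25 peaks in the Dusp4 region and 16 in the Zfp36l2 region. Requiring at least 8-fold over input left 17 and 16. With at least 1 input tag 24 and 21 were left, and with peaks within 3 kb merged into 1 site, an alternative chosen after seeing the data, 21 and 24. Requiring the whole peak inside the region changed neither count. With windows shifted by 500 kb, 0.235% of windows held at least 25 peaks, against 0.351%. The number of peaks with a neighbour within 10 kb depended most on the choices. In the Dusp4 region it was 18, and it was 10 within 5 kb, 21 within 20 kb, 6 with the 8-fold filter and 6 with the filter on median tags. In the Zfp36l2 region it was 9, and it was 6 within 5 kb, 17 within 20 kb, 4 with the 8-fold filter and 5 with the filter on median tags. The filters remove neighbours along with peaks. The contrast in close spacing between the regions was thus smaller within 5 kb, within 20 kb and under either filter. Within 3 kb, the limit also used above, 8 Dusp4 and 2 Zfp36l2 peaks had a neighbour. That was a smaller difference in number than at 10 kb but a larger ratio. The median strength relative to the list, 0.933 by tags in the Dusp4 region and 1.07 in the Zfp36l2 region, ran from 0.875 to 1.08 and from 1.06 to 1.1 under score, fold or an 8-fold filter. No replicate could be left out with 1 ChIP library. A paired analysis was not possible either, with 1 ChIP library and 1 input library. At this depth a site whose score stays under the caller's threshold of 9 is not listed, so stretches without peaks are not shown to be unbound.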

Other observations

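The caller's score, its peak height with at most 1 tag per bp considered, ran beside the tag count. Its median per tag was 0.92 in the Dusp4 region and 0.846 in the Zfp36l2 region, against 0.88 in the list. The highest scores were 33 in the Dusp4 region and 35 in the Zfp36l2 region, and belonged to the peaks of 40 and 44 tags. The caller's ratio for clonal tags, which rises when tags pile up on few positions, was 0.77 to 1.2 in each region, within the 0.71 to 1.73 of the list.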
